A study of Mus musculus with 4 samples.

Results

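Accessible chromatin regions at 5 genes of the RUNX and core binding factor system, Runx1, Runx2, Runx3, Cbfb and Cbfa2t3, were compared between Med23-deficient and control hematopoietic stem cells (HSCs) of the mouse. A region belonged to these genes when a peak of either genotype overlapped the annotated gene body or the 50 kb on each side of it. A peak is a stretch in which ATAC-seq, an assay that inserts adapters into open DNA with a transposase, gave more signal than its surroundings. Overlapping peaks of the genotypes were merged into 1 region, which gave 57 regions at these genes of 45475 on the autosomes and chromosome X. The WT list contributed 46 peaks to them and the KO list 49. The value given for a peak is its pileup, the number of fragments or reads stacked at the summit, recovered from the deposited fold enrichment and p-value. The region nearest to a window's edge from inside was the promoter of Aprt near Cbfa2t3, 0.965 kb within it (pileup 23 in WT and 19 in KO), and from outside a shared region 0.557 kb beyond the window of Runx3 (17 and 12).

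The cells came from bone marrow of adult C57BL/6 mice, sorted as LSK cells that were CD150+, CD34- and CD48- by the labels, with 5000 cells in each reaction. The study's methods for ATAC-seq name CD150+ and CD48- LSK cells and do not mention CD34 there. WT mice carried floxed Med23 (Med23floxp/flowp in the labels) and no cre, and KO mice carried Mx1-cre in addition. Med23 encodes a subunit of Mediator, the complex that links transcription factors to RNA polymerase II. Mx1-cre is driven by an interferon-inducible promoter and is not confined to HSCs, and the study's methods induce it with poly(I:C). Whether both genotypes of these libraries received poly(I:C), and how long before the sort, is not given in the sources used here. The labels name 4 samples, 2 of each genotype, and both samples of a genotype share 1 peak list, so that no value below has a spread between replicates and no test was made. Whether the lists come from pooled reads or pooled animals is not stated.

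RUNX1, RUNX2 and RUNX3 are the DNA-binding subunits of core binding factor and recognise the sequence TGTGGT through their Runt domain. CBFB does not itself bind DNA but strengthens the binding of its RUNX partner. Runx1 is required for the emergence of HSCs in the embryo, and each Runx gene has a distal promoter, P1, and an internal promoter, P2, whose proteins differ at the start. CBFA2T3, also called ETO2 or MTG16, is a corepressor that is brought to DNA by other factors, among them TAL1 in blood progenitors.

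The sequences on which the following account turns are given first, in GRCm38 (mm10) coordinates. Capitals mark matches on either strand to 4 motifs of blood factors. RUNX factors are represented by TGTGGT and, as a variant, by TGCGGT. The motif AGATAA stands for GATA factors. The motif AGGAAG stands for ETS factors. For E-box factors such as TAL1 the letters searched were CAGCTG and, as a variant, also CATCTG. Adjoining or overlapping matches form 1 run of capitals. The intronic sites of Runx1 are 200 bases around the summit, on the plus strand, and are shown because they were the strongest accessible regions of that gene in both lists. The enhancer in intron 1 lies at chr16:92801680-92801879 and the site near P1 at chr16:92822176-92822375. In the second, a RUNX match on each strand stood 2 bases apart.
Runx1 intron 1 enhancer: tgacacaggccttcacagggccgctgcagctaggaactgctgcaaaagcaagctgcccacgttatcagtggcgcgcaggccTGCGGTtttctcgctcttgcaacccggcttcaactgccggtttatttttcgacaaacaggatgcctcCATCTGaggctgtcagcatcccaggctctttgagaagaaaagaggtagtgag
Runx1 intron 1 site near P1: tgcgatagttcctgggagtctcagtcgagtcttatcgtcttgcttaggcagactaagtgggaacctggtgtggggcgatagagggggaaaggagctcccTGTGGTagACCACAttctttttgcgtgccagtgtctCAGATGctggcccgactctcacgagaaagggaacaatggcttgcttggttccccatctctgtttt

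The promoters are the bases just upstream of the start site in RefSeq (GRCm38.p6), on the strand of the gene, and show how much the P1 and P2 sequences of Runx1 differ and how the RUNX sites of Runx3 P1 are placed. They are Runx1 P1 at chr16:92826150-92826324 (minus strand, cut at the annotated 5′ UTR), Runx1 P2 at chr16:92697330-92697579 (minus strand), Runx3 P1 at chr4:135120395-135120644 (plus strand) and the Cbfb promoter at chr8:105170424-105170673 (plus strand). G and C made up 45.1% of the Runx1 P1 stretch and 67.6% of the P2 stretch. Runx3 P1 held 2 RUNX matches in the same direction, 2 bases apart.
Runx1 P1: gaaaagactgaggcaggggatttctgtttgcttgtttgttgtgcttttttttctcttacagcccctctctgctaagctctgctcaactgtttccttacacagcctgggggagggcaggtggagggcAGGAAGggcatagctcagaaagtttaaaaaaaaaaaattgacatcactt
Runx1 P2: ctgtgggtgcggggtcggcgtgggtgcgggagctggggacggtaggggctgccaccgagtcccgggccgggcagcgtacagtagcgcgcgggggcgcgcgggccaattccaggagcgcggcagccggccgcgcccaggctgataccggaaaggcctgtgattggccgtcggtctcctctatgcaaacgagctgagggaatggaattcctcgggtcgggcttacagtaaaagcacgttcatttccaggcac
Runx3 P1: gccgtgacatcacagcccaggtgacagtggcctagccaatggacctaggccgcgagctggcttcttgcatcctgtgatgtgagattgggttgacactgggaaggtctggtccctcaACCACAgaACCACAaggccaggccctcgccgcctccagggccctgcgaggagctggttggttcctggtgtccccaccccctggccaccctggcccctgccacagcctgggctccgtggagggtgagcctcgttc
Cbfb promoter: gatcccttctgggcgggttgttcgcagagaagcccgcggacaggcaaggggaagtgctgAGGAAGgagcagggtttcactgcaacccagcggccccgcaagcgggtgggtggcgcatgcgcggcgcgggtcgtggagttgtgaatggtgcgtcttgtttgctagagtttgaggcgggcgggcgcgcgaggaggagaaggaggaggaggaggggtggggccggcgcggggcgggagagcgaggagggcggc

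The other distal windows, again 200 bases on the plus strand, are those that stood apart in the comparison of the lists or in their motifs. The site upstream of Runx1 at chr16:92868654-92868853 had the highest KO to WT ratio and the site downstream of Runx3 at chr4:135203283-135203482 the lowest. That window of Runx3 holds the WT summit (135203383) and not the KO summit (135203678). The site upstream of Runx3 at chr4:135085504-135085703 was the strongest region found in 1 list only. The site upstream of Cbfa2t3 at chr8:122719891-122720090 was the strongest region of that gene outside promoters by the pileups of both lists summed, and in it a GATA and a RUNX match overlap. The intronic site of Runx2 at chr17:44601518-44601717, present in the WT list only, held all 4 motifs.
Runx1 upstream site: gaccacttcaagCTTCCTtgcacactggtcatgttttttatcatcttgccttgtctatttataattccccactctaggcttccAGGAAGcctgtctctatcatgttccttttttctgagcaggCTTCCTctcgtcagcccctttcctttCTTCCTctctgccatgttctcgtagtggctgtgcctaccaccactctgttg
Runx3 downstream site: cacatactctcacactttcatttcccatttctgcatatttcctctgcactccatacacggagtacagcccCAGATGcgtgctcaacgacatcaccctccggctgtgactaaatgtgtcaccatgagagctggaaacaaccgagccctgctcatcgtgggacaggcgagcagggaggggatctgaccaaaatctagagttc
Runx3 upstream site: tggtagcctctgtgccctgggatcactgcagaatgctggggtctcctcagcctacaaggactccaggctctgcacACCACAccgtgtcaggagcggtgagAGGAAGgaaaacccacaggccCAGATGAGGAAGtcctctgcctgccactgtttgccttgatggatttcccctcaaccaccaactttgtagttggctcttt
Cbfa2t3 upstream site: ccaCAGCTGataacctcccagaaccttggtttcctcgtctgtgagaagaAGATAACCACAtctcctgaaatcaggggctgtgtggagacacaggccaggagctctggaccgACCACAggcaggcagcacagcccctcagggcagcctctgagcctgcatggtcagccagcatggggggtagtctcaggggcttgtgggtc
Runx2 intronic site: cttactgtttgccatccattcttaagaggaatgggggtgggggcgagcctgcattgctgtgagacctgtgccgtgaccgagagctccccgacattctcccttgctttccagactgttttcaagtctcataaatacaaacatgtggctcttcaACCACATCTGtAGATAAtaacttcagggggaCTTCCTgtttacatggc

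The labels were checked against the data in 2 ways. Med23, the deleted gene, had an accessible promoter in both lists (64 in WT, 85 in KO at the summit, log2 0.50, 0.01 to 0.99). Its window held 2 more regions, both outside the gene body, 1 in both lists (37 and 43) and 1 in WT only (7, 38.1 kb upstream). The lists have no other peak in the gene, so whether its floxed segment was lost cannot be read from them. Of 8 stem cell markers 5 had a promoter peak in each list (not Ly6a, Slamf1 or Procr), against 1 of 4 T cell markers in each, 2 of 4 B cell markers in each, 2 of 4 erythroid markers in each and 1 of 4 genes of tissues other than blood. Of 6 markers of mature myeloid cells 1 had a promoter peak in WT (S100a8, pileup 11) and 0 in KO, and of 4 megakaryocyte markers 3 had one in WT and 4 in KO (Gp9, pileup 23 in KO). The part of other cell types in the results below was not tested.

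Most of the accessible regions at the RUNX and core binding factor genes were present in both genotypes. Of the 57 regions, 37 were in both lists (64.9%, 95% Wilson interval 51.9 to 76.0%), against 64.8% of all regions. In the WT list only were 9 regions (15.8%, 8.54 to 27.4%), where the share over all regions was 18.1%. In the KO list only were 11 regions (19.3%, 11.1 to 31.3%), where the share over all regions was 17.2%. The shares at these genes lay near those of the genome for the lists as deposited. Peaks of a -log10 q of at least 5 left 4 regions in WT only and 9 in KO only (9.76% and 22.0%, against 11.1% and 19.9% of all regions), and those of at least 10 left 1 and 6 (3.70% and 22.2%, against 8.31% and 22.4%). Intervals cover counting error over regions, which are not replicates.

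The regions in both lists were the wide and strong ones, and those in 1 list were narrow and weak. Median width was 912 bp for regions in both lists and 353.5 bp for regions in 1 list, and over all regions the medians were 866 bp and 365 bp. A region in both lists spans its merged peaks, so that part of its greater width comes from the merging. Regions in the WT list only had pileups of 7 to 12 (median 8) and those in the KO list only 6 to 20 (median 12), while the shared regions reached a median of 27 in WT (8 to 56) and 23 in KO (9 to 55). The smallest pileup of a peak in either list was 6, so that a region absent from a list may still hold signal below the calling threshold there. Of the regions in 1 list only, 0 of the 9 in WT and 1 of the 11 in KO reached the median pileup of their list, which was 18 in WT and 19 in KO. Over the whole genome the regions in 1 list were weak as well, with a median of 10 in WT only and 11 in KO only.

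**Figure D1:**
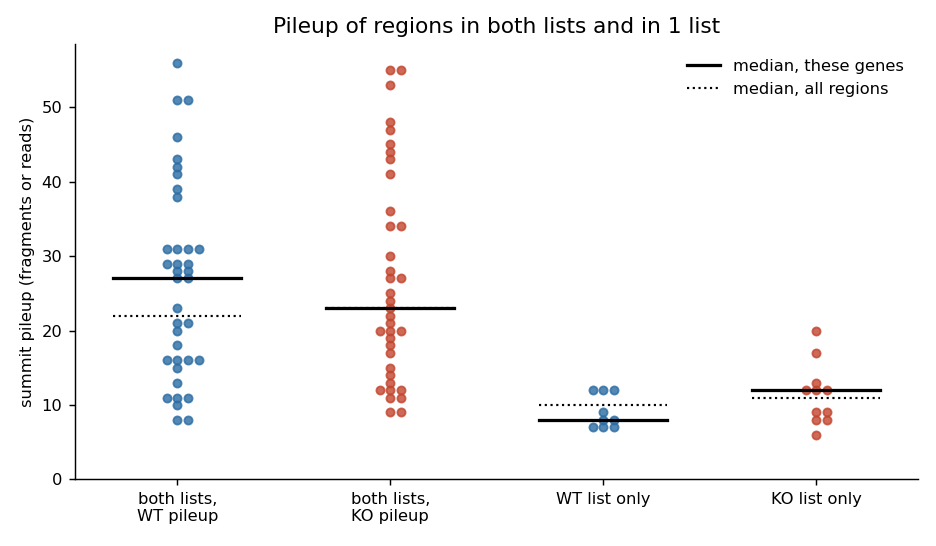
Summit pileup (fragments or reads, linear axis from 0) of the regions around the 5 genes, split into the 37 regions of both lists (WT pileup, then KO pileup), the 9 of the WT list only and the 11 of the KO list only. Points are regions, solid lines their medians and dotted lines the medians over all regions of that kind. Regions in 1 list lie at 20 or below, and shared regions extend to 56.

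At shared regions the genotypes differed little. The ratio of KO to WT was computed as pileup over the genome-wide background of each list (1.19 in WT and 1.13 in KO) for the 36 regions with 1 peak of each list. Its median was 0.14 on the log2 scale (quartiles -0.16 and 0.30), against 0.17 (quartiles -0.10 and 0.43) over 28909 such regions of the genome. Summed over these regions, the WT pileup was 951 and the KO pileup 974, which is a log2 ratio of 0.12 with an exact binomial interval of -0.01 to 0.25, and the ratio of the sums over the genome was 0.17. The ratio was above the genome's median in 15 of the 36 regions. Each pileup was taken at the summit of its own list, and in 23 of the 36 regions these summits lay within 100 bp of each other.

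Few single regions left that range. Relative to the median of all shared regions, 2 of 36 were past 1.5-fold higher in KO, where 7.63% of all shared regions were, and 3 of 36 past 1.5-fold lower, where 7.91% were. The interval of a region's own ratio lay above the genome's median for 0 of the 36 (1.91% of all shared regions) and below it for 0 of the 36 (1.54%). At the pileups of these regions a difference had to be large to leave the counting error: for the strongest region, with 56 and 55, the interval of the log2 ratio still ran from -0.50 to 0.62.

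**Figure D2:**
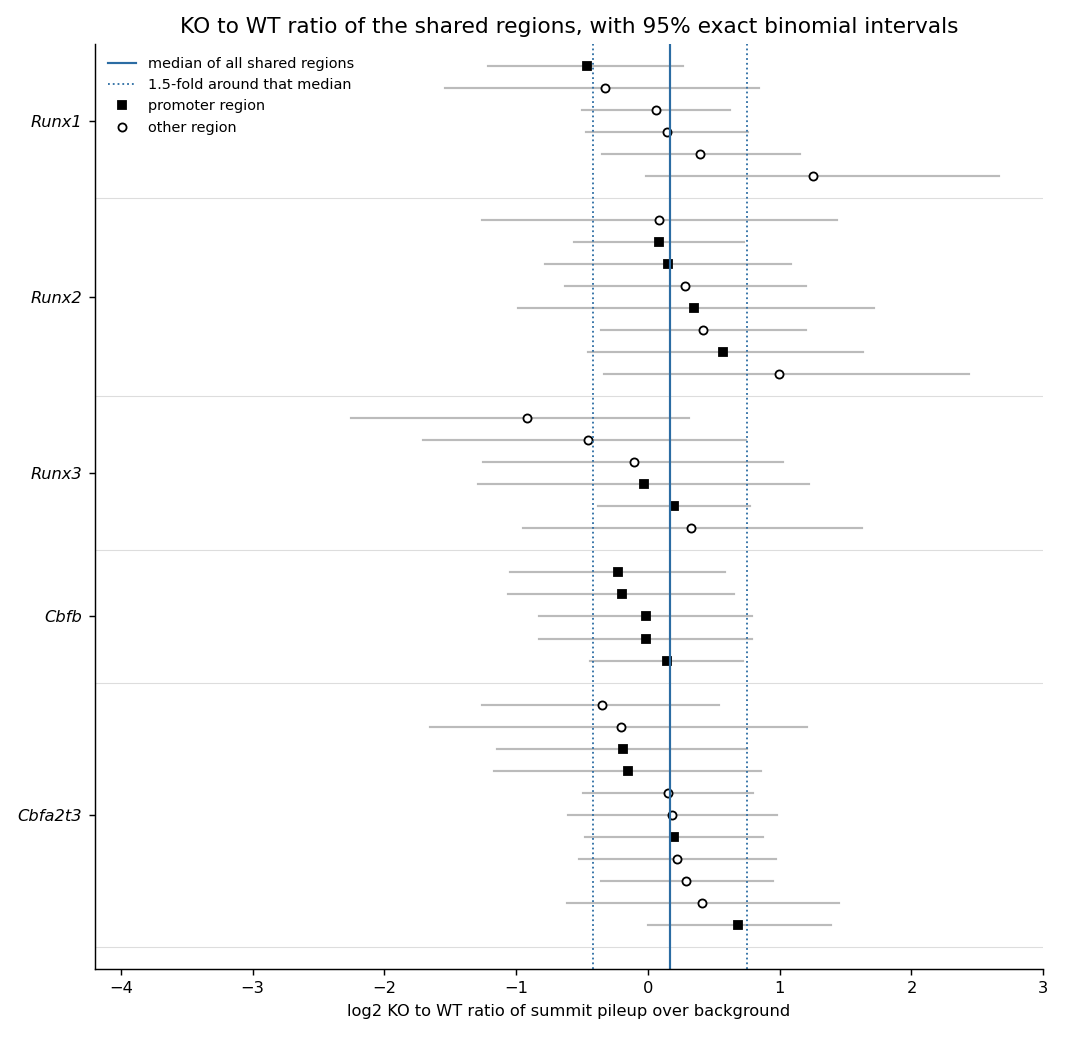
Log2 KO to WT ratio of summit pileup over background (x axis) for the 36 shared regions with 1 peak of each list, grouped by gene and ordered by ratio; filled squares are promoter regions, open circles other regions, and grey lines 95% exact binomial intervals that cover counting error only. The solid line is the median of all shared regions, 0.17, and the dotted lines mark 1.5-fold around it; 2 points lie to the right of the dotted lines and 3 to the left, and every interval crosses the solid line.

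By position, 11 regions were promoters of the 5 genes, with a summit within 1 kb of an annotated start site, and 8 were promoters of neighbouring genes inside the windows. A further 22 lay in introns, 2 in exons (both in Cbfa2t3 and in annotated UTR sequence) and 14 outside the gene bodies. All 8 promoters of neighbours and 9 of the 11 promoters of the RUNX and core binding factor genes were in both lists, and the other 2 were in the KO list only. Of the 22 intronic regions 10 were in both lists, 6 in WT only and 6 in KO only. Away from promoters 20 of the 38 regions were in both lists, where 15564 of 28926 were over the genome. Promoters made up 45.95% of the regions in both lists and 10.0% of those in 1 list, against 47.17% and 16.57% over the genome. The median log2 ratio was 0.15 at the promoters of the 5 genes (8 regions, -0.46 to 0.35), 0.21 in their introns (10 regions, -0.33 to 0.99) and 0.15 outside them (9 regions, -0.91 to 1.26). At the promoters of neighbouring genes it was -0.02 (8 regions, -0.22 to 0.69). Over the genome it was 0.10 at promoters and 0.22 elsewhere.

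**Figure D3:**
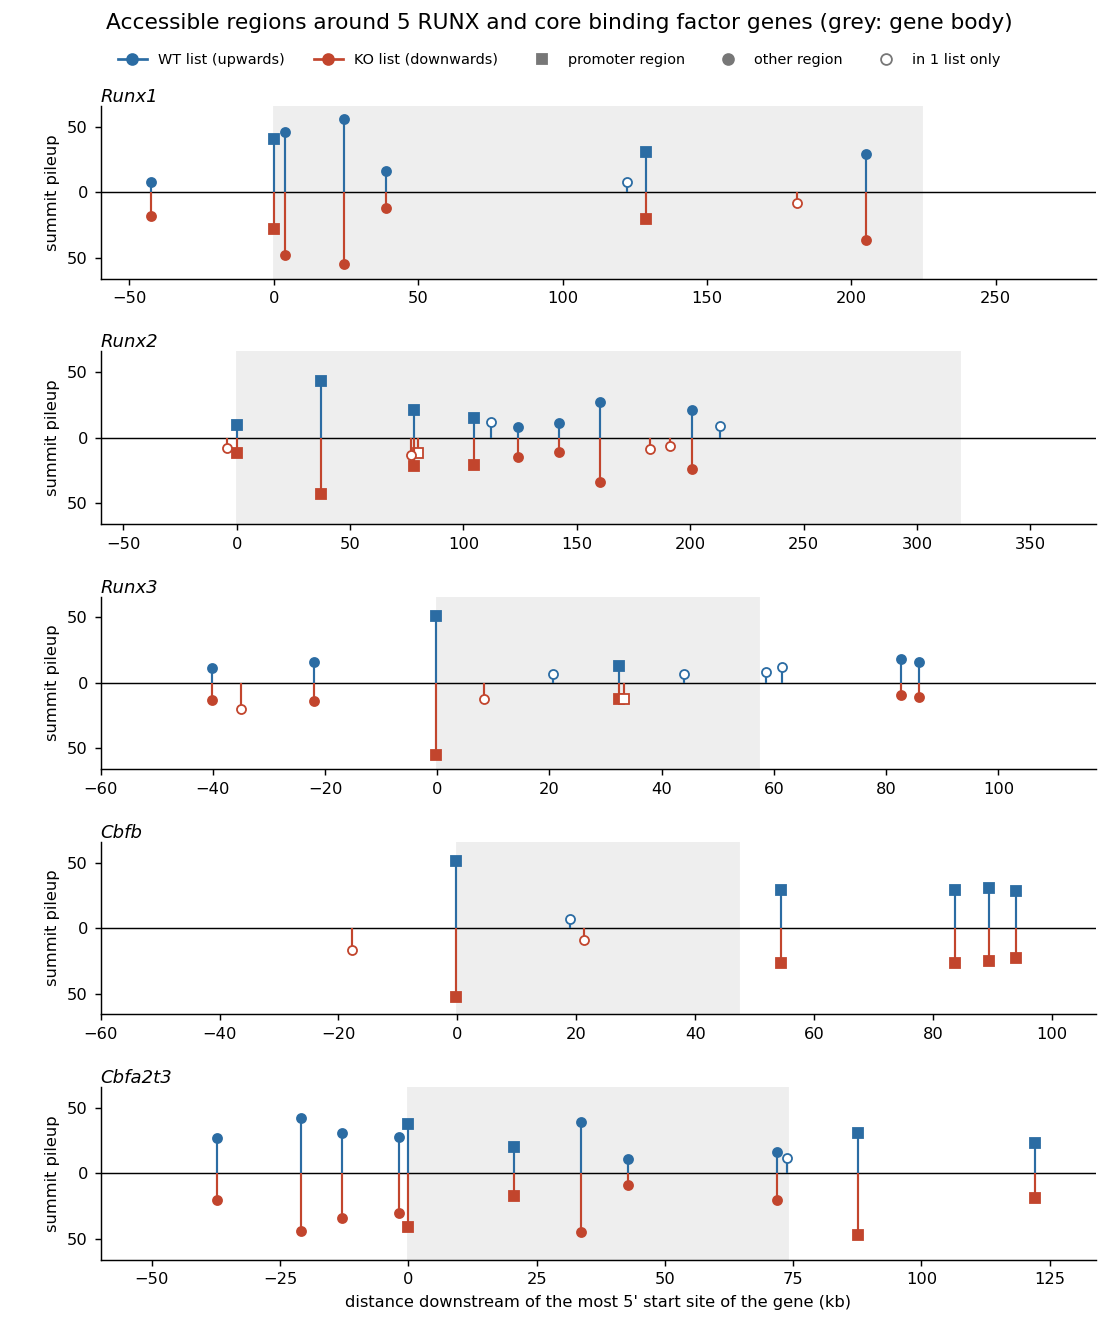
Summit pileup of every region (y axis, WT upwards in blue, KO downwards in red) by distance from the most 5′ start site of each gene in the direction of transcription (x axis, kb; the grey band is the gene body). Squares are promoter regions, circles other regions, and open symbols regions in 1 list only. The tallest stem of each gene stands in both lists, and the open symbols reach 20 at Runx3 and 17 at Cbfb.

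Runx1, the RUNX gene best known in HSCs, had 9 regions, 7 in both lists, 1 in WT only and 1 in KO only (ENSMUSG00000022952.17, chr16:92601466-92826149, minus strand). Its strongest region, from 92800872 to 92802151, was the enhancer in intron 1, whose summit stood 23.9 kb downstream of the P1 start codon in WT and 23.8 kb in KO. Its summit carried 56 in WT and 55 in KO. With a log2 ratio of 0.06 (-0.50 to 0.62), the enhancer was open to a like extent in both lists within counting error. Its fold enrichment over the local background, as the authors give it, was 9.82 in WT and 12.6 in KO, with a local background of 4.80 and 3.44. A lower local background in KO was found in 35 of the 36 shared regions of the 5 genes and in 23588 of the 28909 of the genome.

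The second strongest region of Runx1 lay in the same intron, 3.9 kb from the most 5′ start site, with 46 in WT and 48 in KO. An intronic region 205.3 kb downstream of P1, beyond P2, had 29 in WT and 36 in KO, and one 39.0 kb downstream had 16 and 12. The intronic regions shared by both lists thus kept the same order of pileup in WT and KO. The region in WT only (122.2 kb) and the region in KO only (181.3 kb) each had a pileup of 8.

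At the Runx1 promoters the WT pileup was the higher of the 2 lists. P1, the main Runx1 promoter of adult blood stem cells, had 41 in WT and 28 in KO, with a log2 ratio of -0.46 (-1.21 to 0.26). Relative to the genome's median of 0.17 it was past 1.5-fold lower (limit -0.42). By the authors' fold enrichment (5.01 in WT, 4.66 in KO) the ratio on the log2 scale was -0.11. It was not past the limit of -0.32 around that scale's own genome median, 0.26. At P2 the WT list had 1 peak, with a pileup of 31, and the KO list 2 separate peaks of 20 and 18 over the same 2305 bp. By the highest peak of each list, a choice made after the data were seen, the log2 ratio at P2 was -0.55 (-1.44 to 0.31), also past 1.5-fold lower, which made 4 such regions in place of 3. Both promoter intervals include 0 and the genome's median.

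Upstream of Runx1 stood the region with the highest ratio of all 36. It lay 42.6 kb from the most 5′ start site, within the long noncoding gene Gm49723 as well, and had a WT pileup of 8 and a KO pileup of 18 (log2 ratio 1.26, -0.02 to 2.67). Of all shared regions of the genome, 99.3% had a lower ratio. Its window, printed above, held 4 ETS matches and no RUNX, GATA or E-box match. With a minimum -log10 q of 5 this region would stand in the KO list only, since its WT peak reached 2.44 and its KO peak 13.8.

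**Figure D4:**
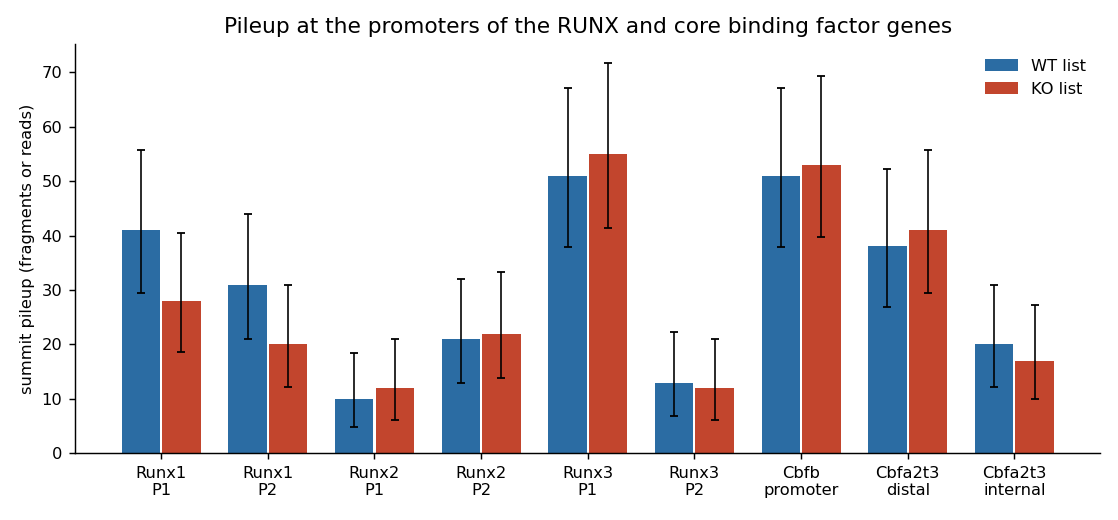
Summit pileup (y axis, fragments or reads, from 0) at each promoter of the 5 genes in the WT and KO lists, with the highest peak where a promoter has more than 1. Error bars are 95% exact Poisson intervals and cover counting error only. Runx3 P1 exceeds Runx3 P2 in both lists, 51 against 13 and 55 against 12, and the WT and KO bars of every promoter have overlapping intervals.

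The balance of distal and internal promoters differed between the Runx genes and was alike in WT and KO. At Runx3, P1 exceeded P2 by 3.92-fold in WT (51 against 13, log2 1.97, interval 1.07 to 2.98) and 4.58-fold in KO (55 against 12, log2 2.20, 1.28 to 3.23). At Runx1 the pileup was also higher at P1, 41 against 31 in WT and 28 against 20 in KO, but with intervals that include 0 (-0.31 to 1.13 and -0.39 to 1.39). At Runx2 the order was the opposite, with 10 at P1 and 21 at P2 in WT and 12 and 22 in KO (log2 -1.07, -2.32 to 0.08, and -0.87, -2.02 to 0.20). At Cbfa2t3 the distal promoter exceeded the internal one, 38 against 20 in WT (log2 0.93, 0.11 to 1.79) and 41 against 17 in KO (log2 1.27, 0.42 to 2.18). Of the 9 promoters, the highest pileup in both lists was therefore at Runx3 P1, with the Cbfb promoter equal to it in WT, and the lowest in WT at Runx2 P1.

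Runx2, the regulator of osteoblast development, had 15 regions in the largest of the windows (ENSMUSG00000039153.16, chr17:44495987-44814797, minus strand), 8 in both lists, 2 in WT only and 5 in KO only. All 8 shared regions had a log2 ratio above 0, from 0.09 to 0.99, as had 65.6% of all shared regions, and 5 of the 8 were above the genome's median. In 2 of the 8 the pileups of the lists were equal, so that the ratio was above 0 only through the scaling by background. Their summed pileup was 156 in WT and 182 in KO (log2 0.31, -0.01 to 0.63, against 0.17 over the genome). Peaks covered 6342 bp of the window in WT and 9013 bp in KO, a difference of 2671 bp that exceeded the difference of 99.7% of 21755 protein-coding genes. The rank is of base pairs not scaled by the length of the window, and large windows have more room for such a difference. With peaks of a -log10 q of at least 10 the difference was 2062 bp. Runx2 thus had more covered sequence in KO under both thresholds. Over all regions the stricter one left 22.4% in KO only and 8.31% in WT only. The difference in covered bases was not ranked over genes at that threshold.

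Within Runx2, P2 held a shared region with 21 in WT and 22 in KO and a second region, with 12, in the KO list only. The strongest region outside the promoters was intronic, 160.1 kb from P1, with 27 in WT and 34 in KO (log2 0.42). An intronic region at 124.2 kb had 8 in WT and 15 in KO and was past 1.5-fold higher (log2 0.99, -0.34 to 2.44). Its WT peak reached a -log10 q of 2.30 and its KO peak 9.58, so that a minimum of 5 left it in the KO list only. The WT summit stood at 44690849 and the KO summit at 44690552, so that the ratio compares pileups of different positions. The antisense gene Runx2os2 had a promoter in the window with 15 and 21 (log2 0.57), and Supt3, which overlaps Runx2, one with 43 in both lists. The 4 regions in KO only besides P2 had pileups of 6, 8, 9 and 13. The 2 regions in WT only, at 112.1 kb and 213.2 kb, had 12 and 9, and the second is the site printed above with all 4 motifs. At pileups this low the counting intervals are wide.

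Runx3, which acts in T cells and other lineages, had 13 regions (ENSMUSG00000070691.10, chr4:135120652-135177990, plus strand), 8.26 per 100 kb, more than around 95.2% of protein-coding genes, whose median was 3.01. Its 6 shared regions summed to 125 in WT and 114 in KO (log2 -0.05, -0.43 to 0.33). P1 stood far above the rest, with 51 in WT and 55 in KO. P2 had 13 and 12, and a second P2 region with 12 was in the KO list only. The promoters of Runx3 thus had like pileups in the genotypes.

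Both regions of Runx3 past 1.5-fold lay outside the gene. Downstream of the gene, the region 82.7 kb from P1 had 18 in WT and 9 in KO (log2 -0.91, -2.25 to 0.31), the lowest ratio of the 36, and the one at 85.8 kb had 16 and 11 (log2 -0.45, -1.71 to 0.74). Both were past 1.5-fold lower on pileup. On the authors' fold enrichment only the first was (log2 -0.35 and -0.05). The limit there was -0.32, set 1.5-fold below the genome's median of 0.26 on that scale. The KO peak of the first reached a -log10 q of 3.74, so that with a minimum of 5 it stood in the WT list only. Its summits stood at 135203383 in WT and 135203678 in KO, so that its ratio compares pileups of different positions. Upstream, the region 35.0 kb from P1 was the strongest of all 20 regions in 1 list, with a pileup of 20 and a fold enrichment of 8.73 in KO and no WT peak. Its neighbours at 22.0 kb and 40.1 kb were in both lists, with 16 and 14 and with 11 and 13. A further KO-only region lay in an intron at 8.4 kb (12), and 4 weak regions were in WT only, with 7 at 20.6 kb, 7 at 44.0 kb, 8 at 58.5 kb and 12 at 61.4 kb.

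Cbfb, which encodes the common partner of the RUNX proteins, had 8 regions (ENSMUSG00000031885.14, chr8:105170674-105217989, plus strand), 5 in both lists and each of those a promoter. Its own promoter had 51 in WT and 53 in KO, with a log2 ratio of 0.14 (-0.44 to 0.72), and was the strongest region of the window. The promoters of the neighbours D230025D16Rik and B3gnt9 each had 29 and 27, the one of Tradd 31 and 25, and the one between Fbxl8 and Tradd 28 and 23. A region 17.8 kb upstream of Cbfb was in the KO list only, with a pileup of 17 and a fold enrichment of 7.82, the second highest of the regions in 1 list. The intron held 1 weak region of each list alone, with 7 in WT and 9 in KO. The few distal regions of Cbfb were each in 1 list only, as were 13362 of the 28926 distal regions of the genome.

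Cbfa2t3, the corepressor gene, had 12 regions (ENSMUSG00000006362.16, chr8:122625141-122699109, minus strand), 11 in both lists, 1 in WT only and 0 in KO only. Its distal promoter had 38 in WT and 41 in KO (log2 0.20, -0.48 to 0.87) and its internal promoter 20 and 17 (log2 -0.15, -1.17 to 0.86). Upstream stood a row of 4 shared regions inside the readthrough gene Gm20388. At 1.9 kb the pileups were 28 and 30, at 13.0 kb 31 and 34, at 20.9 kb 42 and 44, and at 37.3 kb 27 and 20 (log2 -0.35). The first 3 of these held a GATA match each, and the one at 20.9 kb also 2 RUNX matches.

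In the body of Cbfa2t3, an intronic region at 33.6 kb had 39 in WT and 45 in KO (log2 0.29, -0.36 to 0.95), and a weaker one at 42.9 kb 11 and 9. The exonic regions were 1 shared region (16 and 20) and 1 in WT only (12). The promoter shared by the neighbours Galns and Trappc2l had a WT pileup of 31 and a KO pileup of 47 (log2 0.69, 0.00 to 1.39), and that of Aprt 23 and 19. Summed over the 11 shared regions the pileup was 306 in WT and 326 in KO (log2 0.18, -0.05 to 0.41), close to the 0.17 of the genome.

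Across the 5 windows peaks covered 33718 bp in WT and 35846 bp in KO, a difference of 2128 bp. It was 297 bp in the gene bodies alone and 72 bp with 10 kb on each side. Runx2 (2671 bp) and Cbfb (864 bp) had more covered sequence in KO, and Runx1 (-689 bp), Runx3 (-369 bp) and Cbfa2t3 (-349 bp) less. The signs of Runx3 and Cbfa2t3 turned with a stricter threshold: at a -log10 q of at least 5 their differences were 2162 and 525 bp. Runx1 stayed below 0 (-665 bp) and Runx2 above it (1875 bp). Over all regions this threshold left 19.9% in KO only and 11.1% in WT only, against 17.2% and 18.1% as deposited. At Runx1, Runx2 and Cbfb the direction held at the thresholds of 5 and 10, and the summed difference depended on the width of the window as well as on the threshold.

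The distal regions of these genes, 38 in all, were searched for the motifs of blood factors in 200 bp around the summit. RUNX matches were present in 13 (34.2%), and in 29.3% of all 28926 distal regions. E-box matches stood in 19 (50.0% against 28.1%), GATA matches in 8 (21.1% against 11.7%) and ETS matches in 17 (44.7% against 47.0%). For CEBP (TTGCNNAA) the shares were 13.2% and 9.47%, for AP1 (TGANTCA) 7.89% and 10.4%, and for the CTCF motif 0% (0 of 38) and 5.68%. These shares have no test, and the windows of these genes were richer in G and C, with a median of 55.0% against 49.0%. A match is a string of letters and not a bound site.

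**Figure D5:**
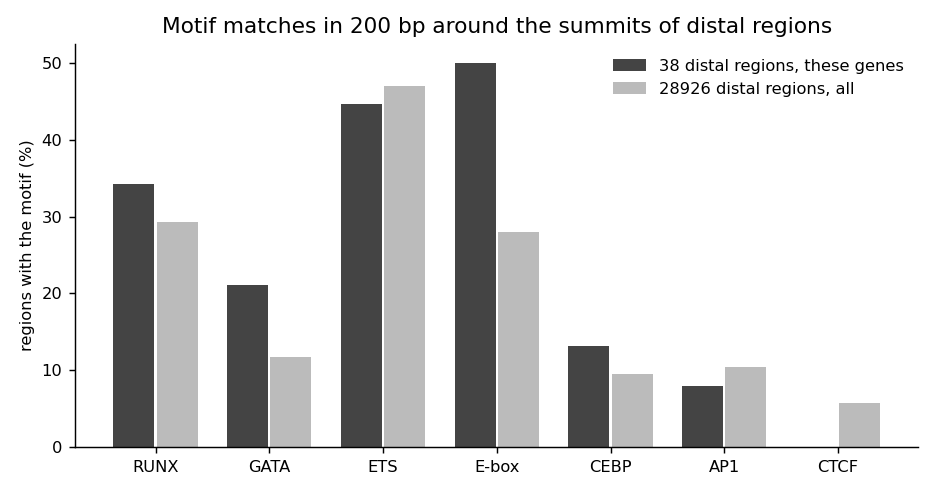
Percentage (y axis, from 0) of the 38 distal regions of the 5 genes (dark bars) and of all 28926 distal regions (light bars) with a match to each motif (x axis) within 200 bp around the summit. The dark bar is well above the light one for the E-box, 50.0% against 28.1%, and lies near it for ETS, 44.7% against 47.0%.

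Combinations of motifs were rare. At least 3 of the RUNX, GATA, ETS and E-box motifs stood together in 4 of the 38 distal regions (10.5%, against 6.93% of all distal regions), and all 4 in 1, the WT-only intronic site of Runx2 (2.63% against 0.446%). RUNX matches stood in 7 of the 20 distal regions in both lists (35.0%, against 32.1% of all such regions) and in 6 of the 18 in 1 list (33.3% against 26.0%), and the difference was not tested. At promoters RUNX matches stood in 4 of the 19 regions (21.1% against 17.3% of all promoter regions), and GATA matches in 0 of 19 (3.70%). In RefSeq, 8 promoters of the 5 genes were listed, and 3 of them held a RUNX match in the 250 bases upstream of the start, where 18.6% of 32851 promoters did.

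The partners and targets of the RUNX proteins, from lists written with earlier results of these data known, are given by their counts, which have no test. Around 6 genes of the heptad, the factors that bind together with RUNX1 in blood progenitors (Gata2, Tal1, Lyl1, Lmo2, Erg and Fli1), 45 of 74 regions were in both lists (60.8%), 11 in WT only (14.9%) and 18 in KO only (24.3%). Around 15 RUNX cofactors 76 of 114 were in both lists (66.7%), 17 in WT only (14.9%) and 21 in KO only (18.4%). Around 10 RUNX1 target genes 55 of 73 were in both lists (75.3%), 11 in WT only (15.1%) and 7 in KO only (9.59%). Over all regions these shares were 64.8%, 18.1% and 17.2%. The median log2 ratio was 0.28 for the heptad partners, 0.18 for the cofactors and 0.18 for the targets. Past 1.5-fold higher and lower were 4 and 3 of 43 regions of the heptad partners (9.30% and 6.98%), 8 and 3 of 73 of the cofactors (11.0% and 4.11%) and 1 and 2 of 55 of the targets (1.82% and 3.64%), beside 7.63% and 7.91% of all shared regions.

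Promoter pileups in these lists were alike in the genotypes for most genes. Tal1, which forms the core of the heptad with LMO2, had 47 in WT and 52 in KO, and Lmo2 51 and 36 (log2 -0.42, -1.07 to 0.23). Spi1, the gene of PU.1 and a RUNX1 target, had 38 and 51 (log2 0.51, -0.12 to 1.16), and Myh10, which RUNX1 represses in megakaryocytes, 41 and 55 (log2 0.51, -0.10 to 1.13). Among the cofactors, Tle4, a Groucho family corepressor, had 179 and 209 (log2 0.31, 0.01 to 0.61), with an interval that includes the genome's median of 0.17. A promoter region was found at 5 of the 6 heptad partners (not Fli1), at 15 of 15 cofactors and at 7 of 10 targets (not Csf1r, Mpo or Elane, genes of mature myeloid cells and their precursors).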

How the data were processed

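ATAC-seq peak lists of HSCs, 1 for WT and 1 for KO, were used as deposited. By their account, the authors used Trim Galore for trimming, Bowtie2 for alignment to mm10, Picard against duplicates and MACS2 without a fragment model for peaks, with versions not given in the sources used here. The deposited lists hold the authors' fold enrichment of the summit over the local background (a ratio), the authors' −log10 p and −log10 q, a display score and the offset of the summit (other). The score was not used. Read totals are unknown.

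Each peak's pileup and local background were solved from its fold enrichment and −log10 p with the Poisson model that MACS2 uses. In each list, 99.99% of peaks gave a whole number to within 0.001 of the −log10 p. The recovery was tested on simulated data. The median of the 1000 lowest local backgrounds stood for the genome-wide background. Peaks overlapping by at least 1 bp formed 1 region. Ratios have exact binomial intervals, which cover counting error only. Start sites and gene bodies came from GENCODE M21, sequence from GRCm38.p6, and motifs were counted on both strands. Python 3.11.15 and scipy 1.17.1 were used.

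The members and lists were chosen with earlier results of these data known. Regions named were the promoters of the 5 genes, the Runx1 enhancer (22 to 25 kb from the P1 start codon), the strongest other region of each window, the 5 highest and 5 lowest ratios and the 5 regions of each list alone with the highest fold enrichment, ties included. Other regions were named after their values were seen.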

Additional observations from a re-analysis of the deposited data

How the results depend on the processing

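Of 67 alternative values for the 10 results on the 5 genes, 45 kept their direction and stayed within 1.5 times of the count or within the counting interval, 21 moved and 1 changed sign. No paired analysis was possible because only 1 list stands for both samples of a genotype. For the same reason no replicate could be left out, and depth is known only as pileup. The ratio at the Runx1 enhancer was -0.026 on raw pileups, within its interval, and 0.36 on the authors' fold enrichment. On fold enrichment the median ratio of the shared regions was 0.36, where that of all shared regions was 0.26. Relative to the latter median, 1 of the 3 regions past 1.5-fold lower was so on fold enrichment too, and an intronic region of Cbfa2t3 joined it.

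With summits required within 100 bp, 42.1% of the regions were shared, and 22 in WT and 24 in KO were not, a region with peaks of both lists apart being counted in each. The share of all regions under this rule was not taken, so that the drop is not set against the genome here. At a -log10 q of at least 5, 4 regions were in WT only and 9 in KO only. Of 27 ratios, 0 were past 1.5-fold higher and 2 lower, and KO covered 4914 bp more than WT. At a -log10 q of at least 10, 1 region was in WT only and 6 in KO only, and 6 promoter regions remained. Of 20 ratios there, 0 were past 1.5-fold higher and 1 lower. Of the 6 in KO only, 4 had a WT peak below the threshold, and the regions upstream of Runx3 and of Cbfb had none. In the gene body alone, 1 of 21 regions was past 1.5-fold higher and 1 lower, and KO covered 297 bp more. With 10 kb on each side, 1 of 23 was higher and 1 lower, and KO covered 72 bp more. Past 2-fold were 1 of 36 higher and 1 lower. RUNX matches within 100 bp stood in 21.1% of the distal regions of these genes, with no share of all distal regions beside it. The alternatives without promoters of other genes and with the highest peak in regions with several peaks were added after the data were seen. Under the second, 4 of 37 regions were past 1.5-fold lower in place of 3, and the other values stayed within the limits above. The share of all shared regions past the limit was not taken under these alternatives, so that their counts are not set against the genome.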
